A study of Mus musculus with 10 samples.

Results

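The 10 genes described here are the FGF receptors Fgfr1, Fgfr2, Fgfr3 and Fgfr4, the ligands Fgf1, Fgf2, Fgf7 and Fgf10, the ligand-binding protein Fgfbp1 and the feedback inhibitor Spry2. They were chosen by name, as every gene of that list with a probe on the array, and are 10 of the 19092 genes to which a probe could be assigned. Together they had 19 probes, and each gene was represented by its brightest probe, the one with the highest mean over the 10 columns of the deposited matrix. The study compared whole lung of wild-type (WT) mice with lung squamous cell carcinoma (SCC) of mice lacking Lkb1 in the airway epithelium. WT mice were Lkb1f/f and carried no Cre, SCC mice were CCSPiCreLkb1f/f, and both were 13 months old, with no treatment. The labels spell their strain B6.129, and the study's methods use the notation of a mixed background. Each group had 5 single-colour Agilent arrays of total RNA, and the labels give the SCC samples as whole lung tumor. The club cell secretory protein promoter that drives the Cre acts in airway epithelial cells, and both kinds of tissue hold other cell types as well. The floxed gene itself was not analysed here. The labels do not say that the arrays came from separate mice, although the study's methods say in general that sample sizes count biological replicates, and p-values measure the spread between these samples.

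FGF signalling passes between neighbouring cells. Ligands bind receptor tyrosine kinases together with heparan sulfate, the receptors signal through adaptors to the RAS and MAP kinase cascade, and the targets include both ETS transcription factors and Sprouty proteins that damp the signal. In lung, Fgf10 and Fgf7 are made by mesenchymal cells and act on the epithelial form of Fgfr2, and Fgf10 is required for lung buds to form and branch.

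The signal was well above background for 71.0% to 74.3% of probes on 9 arrays and for 90.2% on SCC replicate 5. Squamous and basal cell markers (7 of 8 listed genes measured) averaged 5.57 to 6.02 on the log2 scale in WT and 14.3 to 14.6 in SCC replicates 1, 3, 4 and 5, and 12.1 in SCC replicate 2, so that this replicate lay nearer to WT. Krt6a and Dsg3 were not well above background on any WT array. Slide 1 held WT replicates 1 to 4, slide 2 held WT replicate 5 with SCC replicates 1 to 3, and slide 3 held SCC replicates 4 and 5, so that only slide 2 allowed a comparison within a slide, against 1 WT array. In bulk RNA, fewer cells of a type and less RNA per cell cannot be told apart.

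Most of these FGF genes were lower in SCC. Of the 10 brightest probes, 9 were bright enough to test, 7 were lower in SCC at an adjusted p below 0.05, 1 was higher and 1 did not pass (limma, adjusted over all 30374 probes tested). The 5 with a difference of at least 2-fold as well, here called, were the ligands Fgf1, Fgf7 and Fgf10 and the receptors Fgfr3 and Fgfr4, all lower in SCC. Over all 15582 genes tested the corresponding shares were 28.4% lower and 25.4% higher at the adjusted p alone, and 13.4% called lower and 11.6% called higher. The groups did not overlap for 7 members, all lower in SCC, against 22.5% of all genes lower and 18.9% higher without overlap. The median difference was -1.20 on the log2 scale over the 9 tested members and -0.04 over all genes tested. With slide as a block, which rests on the within-slide comparison, 2 members passed, both lower, and 1 was called lower, where 7.98% of all genes passed lower and 6.43% were called lower. Without SCC replicates 2 and 5, 7 members passed lower and 1 higher, where 34.6% and 32.2% of all genes did, and 5 were called lower and 1 higher, where 14.5% and 13.4% were.

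Because Fgfr4, Fgf7 and Fgf10 showed the largest falls and Fgfbp1 alone rose, the sequence upstream of their RefSeq starts is printed (GRCm38.p6, read in the direction of the gene, annotated gene bases left out). These are chr13:55152568-55152817 (+) for Fgfr4, chr2:126034408-126034657 (+) for Fgf7, chr13:118714449-118714698 (+) for Fgf10 and chr5:43981829-43982049 (-) for Fgfbp1. Capitals mark a match to the forkhead motif.
Fgfr4: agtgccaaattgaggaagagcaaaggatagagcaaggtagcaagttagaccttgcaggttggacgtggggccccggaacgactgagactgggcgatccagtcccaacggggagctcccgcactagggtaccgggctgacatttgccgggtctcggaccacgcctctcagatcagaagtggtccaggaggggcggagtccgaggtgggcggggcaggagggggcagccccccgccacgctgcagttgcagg
Fgf7: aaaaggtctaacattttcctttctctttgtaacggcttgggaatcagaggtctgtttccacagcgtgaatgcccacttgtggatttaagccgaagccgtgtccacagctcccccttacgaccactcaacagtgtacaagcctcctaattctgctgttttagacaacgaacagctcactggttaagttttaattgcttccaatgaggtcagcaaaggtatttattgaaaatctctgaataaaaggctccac
Fgf10: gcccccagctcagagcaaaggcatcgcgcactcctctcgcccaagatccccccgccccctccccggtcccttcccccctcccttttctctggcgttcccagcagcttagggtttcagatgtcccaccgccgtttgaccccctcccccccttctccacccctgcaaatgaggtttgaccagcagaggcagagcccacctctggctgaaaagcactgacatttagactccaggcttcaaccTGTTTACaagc
Fgfbp1: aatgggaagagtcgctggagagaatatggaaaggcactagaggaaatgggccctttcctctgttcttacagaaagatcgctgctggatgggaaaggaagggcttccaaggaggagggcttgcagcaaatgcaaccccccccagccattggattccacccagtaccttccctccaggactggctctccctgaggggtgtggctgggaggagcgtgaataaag

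The promoter table held 8 of the 10 genes. Sequences with under 200 bases before the annotated gene were left out, and so was any sequence on a chromosome excluded by name. This left 7 sequences, and Fgfr1, Fgf1 and Fgf2 are not among them. In these 7 sequences 4 motifs were searched on both strands, with no overlap among matches: the AP-1 motif spelled TGANTCA, the core promoter motif spelled TATAAA, the forkhead motif spelled TGTTTAC and the SOX motif spelled ACAATGG. A single match was found, the forkhead letters in Fgf10, 11 bases before the start. Over the 250 bases before all 32851 listed starts, 6.75% held the AP-1 letters, 12.4% the core promoter letters, 3.17% the forkhead and 3.02% the SOX letters. GC content was 64% for Fgfr4, 43.6% for Fgf7, 61.2% for Fgf10 and 55.2% for Fgfbp1.

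The receptors differed among themselves in how far their signal fell. Fgfr4, a receptor for several FGFs including those that act with a Klotho co-receptor, fell furthest, and Fgfr3, which is expressed in lung epithelium, fell on each of its 3 probes. Fgfr2, whose epithelial splice form binds Fgf7 and Fgf10, fell by less than 2-fold, and Fgfr1, found mainly in mesenchymal cells, did not pass the test.

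Fgfr4 gave 13.48, 13.15, 13.31, 13.34 and 13.26 in WT replicates 1 to 5 and 9.99, 11.48, 8.25, 9.07 and 9.51 in SCC replicates 1 to 5 (normalized log2 signal). The groups were far apart, and SCC replicate 2 was the highest of the SCC arrays. Fgfr4 fell by 3.65 ± 0.49 (SE, n = 5 per group), 12.5-fold lower, with limma's adjusted p = 0.000262 and an exact permutation p of 0.00794, the smallest that 5 against 5 arrays allow. With slide as a block the difference was -3.36 and limma's adjusted p 0.0595.

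Fgfr3 gave 12.05, 12.08, 12.51, 12.03 and 12.08 in WT and 11.07, 11.38, 10.86, 10.57 and 10.88 in SCC. All SCC arrays lay below all WT arrays on each of its 3 probes. The brightest probe fell by 1.20 ± 0.16 (limma's adjusted p = 0.000255), and the other probes fell by 1.27 and 0.89 (limma's adjusted p = 9.09e-05 and 0.000437). The brightest probe's difference was -0.98 with slide as a block, with limma's adjusted p = 0.0576.

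Fgfr2 gave 11.83, 11.94, 12.02, 12.06 and 11.78 in WT and 11.36, 11.57, 11.42, 11.12 and 11.28 in SCC. The groups did not overlap, and the fall of 0.58 ± 0.11 was 1.49-fold (limma's adjusted p = 0.00159). The other 2 probes of Fgfr2 differed by -0.09 and -0.45 and did not pass (limma's adjusted p = 0.658 and 0.101). The 3 probes carry the gene's name only, so which splice forms each reads was not tested. Fgfr2 differed by -0.33 with slide as a block (limma's adjusted p = 0.24).

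Fgfr1 gave 7.91, 7.99, 7.88, 7.74 and 7.91 in WT and 7.78, 7.82, 7.92, 7.84 and 7.91 in SCC. The groups overlapped almost entirely. The difference was -0.03 with a 95% interval of -0.21 to 0.14 (limma's adjusted p = 0.757), and it was 0.07 when arrays were scaled to their 75th percentile and 0.03 as the mean over its probes. Its other 2 probes differed by -0.28 and 0.41 and did not pass (limma's adjusted p = 0.14 and 0.385).

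**Figure D1:**
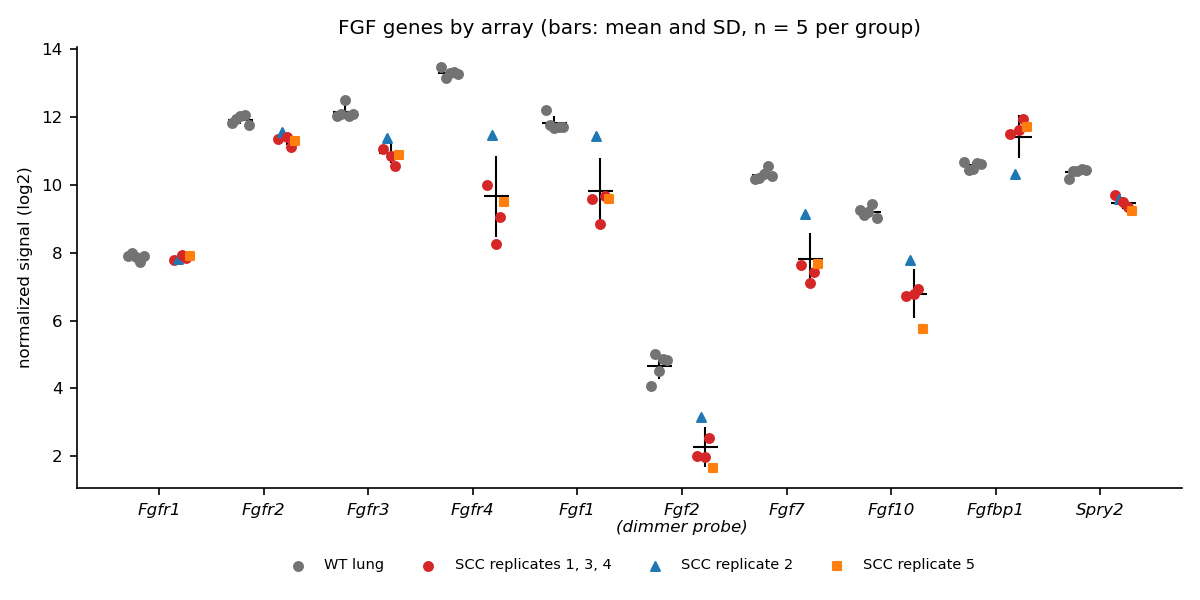
Normalized log2 signal (vertical axis) of the 10 genes on each of the 10 arrays, with WT lung in grey and SCC in colour; bars give the mean and SD of 5 arrays. Fgf2 is drawn by its dimmer probe, not well above background on any SCC array. SCC replicate 2 (triangles) lies nearer to WT than the other SCC arrays for Fgfr4, Fgf1, Fgf7 and Fgf10, and below all WT arrays for Fgfbp1.

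The 3 ligands tested by their brightest probe all fell. Fgf7, the keratinocyte growth factor, and Fgf10 each have a single probe, and both fell by over 5-fold in the mean. Fgf1, a ligand that binds all the FGF receptors, fell by about 4-fold on its brighter probe. Fgf2, the basic FGF of matrix and endothelium, was dim on the array.

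Fgf7 gave 10.18, 10.20, 10.33, 10.56 and 10.26 in WT and 7.65, 9.16, 7.12, 7.43 and 7.67 in SCC. SCC replicate 2 was the highest of the tumours, and the groups did not overlap. The fall was 2.50 ± 0.33, 5.66-fold (limma's adjusted p = 0.000232). Without SCC replicate 2 it was 2.84, with normexp background correction Fgf7 differed by -1.87 (limma's adjusted p = 7.39e-05), and with slide as a block the difference was -2.29 with limma's adjusted p = 0.057.

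Fgf10 gave 9.26, 9.12, 9.19, 9.43 and 9.03 in WT and 6.72, 7.79, 6.78, 6.94 and 5.76 in SCC. SCC replicate 5 was the lowest and replicate 2 the highest of the SCC arrays, and both lay below all WT arrays. Fgf10 fell by 2.41 ± 0.30, 5.32-fold (limma's adjusted p = 0.000177). With normexp background correction, which adds an offset of 50 to the signal, it differed by -1.59 (limma's adjusted p = 1.91e-05), and it passed with slide as a block, with a difference of -1.94 (limma's adjusted p = 0.0484).

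Fgf1 gave 12.22, 11.76, 11.68, 11.72 and 11.70 in WT and 9.59, 11.43, 8.86, 9.69 and 9.58 in SCC. In SCC replicate 2 it lay just below the lowest WT array. The fall was 1.99 ± 0.40, 3.96-fold (limma's adjusted p = 0.0028). Its dimmer probe differed by -0.83 and did not pass (limma's adjusted p = 0.0731). Its brighter probe differed by -1.74 with slide as a block (limma's adjusted p = 0.192).

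Fgf2 was measured by 2 probes, both near background. The brightest gave 3.82, 3.87, 4.02, 4.35 and 4.14 in WT and 3.34, 3.40, 3.19, 2.75 and 7.67 in SCC. It was well above background on 1 array of each group and was not tested, and SCC replicate 5 alone was high. The other probe, taken up after these values were seen, gave 4.08, 5.01, 4.51, 4.86 and 4.85 in WT and 2.02, 3.16, 1.99, 2.53 and 1.66 in SCC. It was well above background on all 5 WT arrays and on no SCC array. With SCC values raised to the lowest level well above background on the same array, it was 1.87-fold lower by the processed signal. That level was 2.14 on SCC replicate 5 and 3.81 to 4.32 on the other arrays, and without that replicate the raised values gave 1.41-fold. The probe was bright enough to test through WT alone, so no test is given for it, and with normexp background correction it differed by -0.37. The measured group means were 4.66 and 2.27, and the second lies below the level the arrays can place. Fgf2 is not counted among the members that passed.

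Fgfbp1, a secreted protein that releases FGFs from heparan sulfate in the matrix and is made by squamous epithelium, was the only member higher in SCC. It gave 10.68, 10.45, 10.48, 10.64 and 10.62 in WT and 11.52, 10.32, 11.61, 11.94 and 11.70 in SCC. In SCC replicate 2 it was below every WT array, and in the other SCC arrays it was above every WT array. The mean difference was 0.84 ± 0.27, 1.79-fold (limma's adjusted p = 0.0254, exact permutation p = 0.0476). Without SCC replicate 2 it rose by 1.12 (limma's adjusted p = 2.09e-05). Leaving out WT replicate 2 or 3, or SCC replicate 1, 3 or 4, put limma's adjusted p between 0.0529 and 0.0585, and with slide as a block the difference was 0.53 (limma's adjusted p = 0.481).

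Spry2, a Sprouty protein that is induced by FGF signalling and restrains the RAS and MAP kinase cascade, gave 10.19, 10.41, 10.40, 10.46 and 10.45 in WT. It gave 9.69, 9.59, 9.51, 9.36 and 9.24 in SCC. The groups did not overlap, and SCC replicate 2 was not apart from the other tumours. Spry2 fell by 0.90 ± 0.11, 1.87-fold (limma's adjusted p = 0.000126), and passed with slide as a block, where the difference was -0.85 (limma's adjusted p = 0.0213). Its dimmer probe differed by 0.29, in the opposite direction, and did not pass (limma's adjusted p = 0.294).

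**Figure D2:**
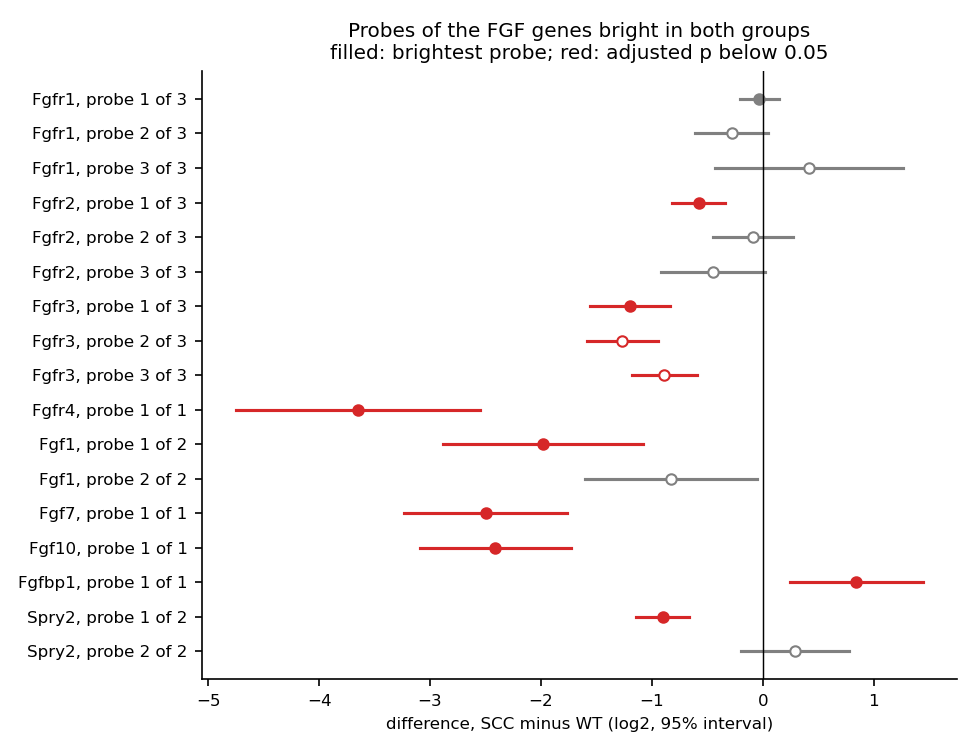
Difference between SCC and WT on the log2 scale (horizontal axis, point and 95% interval of the fit, 5 arrays per group) for the 17 probes of these genes that were well above background on all arrays; both Fgf2 probes are left out. Filled points are each gene's brightest probe and red marks limma's adjusted p below 0.05; all 3 Fgfr3 probes are lower, while the probes of Fgfr2, Fgf1 and Spry2 disagree on the test.

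SCC replicate 2 lay between the WT mean and the mean of the other tumours for all 7 members that fell. As a share of the distance from WT to those tumours, a measure added after the data were seen, it stood at 16% for Fgf1, 41% for Fgf7, 45% for Fgfr4 and 53% for Fgf10. For Fgfr2, Fgfr3 and Spry2 it stood at 56%, 59% and 85%.

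Marker lists of other cell types differed between the groups as well. Endothelial markers, all 6 lower in SCC, averaged 13.7 to 14.0 in WT, 11.4 to 11.6 in 4 tumours and 12.4 in SCC replicate 2. Fibroblast markers, 4 of 8 called lower and 3 that rose by less than 2-fold, averaged 13.2 to 13.4 in WT, 12.1 to 12.7 in 4 tumours and 13.1 in SCC replicate 2. Alveolar type 2 cell markers, 3 of 5 of which passed as lower and were not called, averaged 15.7 to 15.8 in WT and 15.0 to 15.6 in SCC. Of 4 measured alveolar type 1 markers, 3 were called lower and Aqp5 passed as higher (0.64), and the list lay between -0.06 and 0.08 from its WT mean in WT and between -1.25 and -0.73 in SCC. Smooth muscle markers, 3 of 5 called lower, averaged 11.9 to 12.4 in WT and 11.0 to 11.8 in SCC, and club and ciliated cell markers, 2 of 5 called lower, averaged 13.3 to 14.4 and 11.7 to 13.7. Neutrophil markers averaged 10.2 to 11.0 in WT, 12.4 to 12.7 in 4 tumours and 9.90 in SCC replicate 2. Macrophage markers, with Marco and Csf1r lower (-0.75 and -0.50) and Cd68 and Mrc1 higher (1.95 and 0.65), averaged 12.3 to 12.9 in WT and 12.4 to 13.4 in SCC. Cardiac muscle markers, all 5 called lower, averaged 9.998 to 13.1 in WT and 7.38 to 9.75 in SCC, and adipocyte markers, 3 of 4 tested called lower and Fabp4 called higher (1.92), averaged 7.37 to 9.40 and 6.61 to 7.27. Proliferation markers averaged 7.55 to 8.40 in WT and 9.44 to 10.9 in SCC. Besides Krt6a and Dsg3, the adipocyte marker Lep was not well above background on any WT array, and the part of these shifts in the FGF values was not tested.

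**Figure D3:**
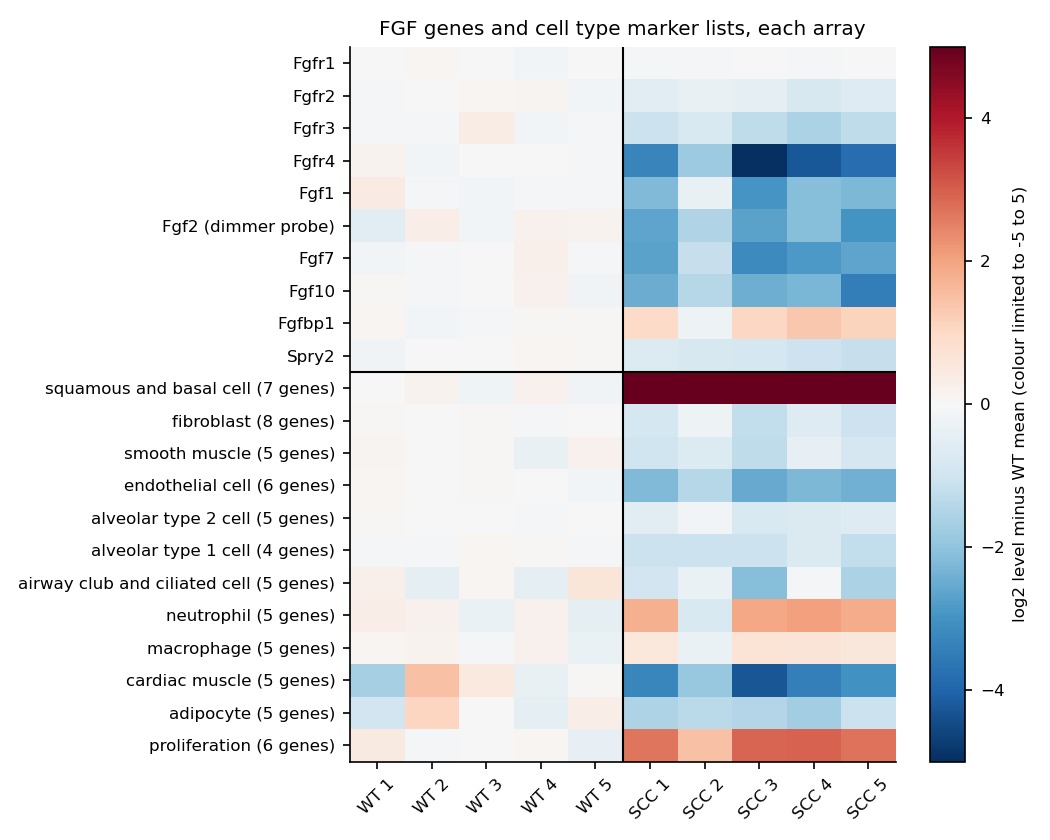
Log2 level minus the WT mean (colour, limited to the range -5 to 5) on each of the 10 arrays, for the 10 genes (above the line) and the mean of each of 12 cell type marker lists (below it). Fgf2 is its dimmer probe. Ligands, Fgfr4 and the endothelial list are lower in the tumours and less so in SCC replicate 2, the squamous and proliferation lists are higher in all 5, and Fgfbp1 is higher in 4 and below the WT mean in SCC replicate 2.

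The other genes of the pathway were taken by role. A list of 65 further genes was used, of which 64 had a probe and 52 were tested. Of these, 19 were lower and 10 higher at the adjusted p, and 13 were called lower and 3 called higher (limma). As shares of those tested, 36.5% were lower and 19.2% higher, where 28.4% and 25.4% of all genes were, and 25% were called lower and 5.77% called higher, where 13.4% and 11.6% of all genes were. The median difference was -0.17. Among the 47 pathway genes well above background on all 10 arrays, which leaves out Fgf12 and Kl, 11 were called lower and 3 higher, where 1748 and 1414 of 14105 genes were. The counts within roles are a description over few genes, to be read against those same shares. With slide as a block 4 were called lower (7.69%) and 2 higher (3.85%), where 6.43% and 5.23% of all genes were, and of the 16 called genes Gpc3, Fgf18, Il17rd, Ndst1, Hs2st1 and Sdc1 passed.

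Among the other ligands, 2 of 8 tested were called, both lower, with Fgf12 bright enough to test in WT alone. Fgf18, a mesenchymal ligand of lung and bone, averaged 11.5 in WT and 9.20 in SCC and fell by 2.26 (limma's adjusted p = 2.6e-05). Fgf12, an intracellular FGF homologue that is not secreted, was well above background on 5 WT and 2 SCC arrays. With dim SCC values raised to the lowest level well above background on the same array, it was 7.45-fold lower, or 5.38-fold without SCC replicate 5. Fgf13 differed by -0.03 on its brightest probe and by -2.53 on another, so its probes disagree. A further 9 ligands were too dim to test, and Fgf4 had no probe.

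Among receptor-like proteins and co-receptors, 5 of 12 tested were called lower, one of them Kl, which was bright enough to test in WT alone, and 1 higher. Kl, the co-receptor of Fgf23, was well above background on 5 WT and 2 SCC arrays. With dim SCC values raised in the same way it was 5.21-fold lower, or 3.97-fold without SCC replicate 5. The calls of Fgf12 and Kl rest on values near background. Gpc3, a glypican, fell by 2.75 (limma's adjusted p = 1.99e-05), Flrt3, a membrane protein that binds FGF receptors, fell by 1.93 (limma's adjusted p = 0.00131), and Fgfrl1, a receptor without a kinase domain, fell by 1.41 (limma's adjusted p = 0.000161). Of the syndecans, which carry heparan sulfate, Sdc2 fell by 1.74 (limma's adjusted p = 0.00113) and Sdc1, a syndecan of epithelium, rose by 1.72 (limma's adjusted p = 4.52e-06). Sdc4 rose by 0.39 (limma's adjusted p = 0.0153), and Sdc3 differed by 0.17 on its brightest probe (limma's adjusted p = 0.601) and by 1.08 on another (limma's adjusted p = 0.000289). Sdc1 was above every WT array on every SCC array, replicate 2 included, and it passed with slide as a block (difference 1.63, limma's adjusted p = 0.00683).

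Of 7 enzymes that edit heparan sulfate, 2 were called lower and 1 called higher. Ndst1 and Hs2st1 fell by 1.33 and 1.12 on their brightest probes, while the 6-O-sulfotransferase Hs6st1 rose by 1.03 (limma's adjusted p = 2.34e-05, 0.000114 and 0.000158). The dimmer Ndst1 probes differed by -0.99 and -0.39 (limma's adjusted p = 0.00218 and 0.344). The dimmer Hs2st1 probe differed by -0.74 (limma's adjusted p = 0.000194), so the dimmer probes of both genes were under 2-fold. Hs6st1 was just under 2-fold, from 0.97 to 0.998, without WT replicate 3 or 4 or SCC replicate 4. Of 15 adaptors and signal relays none was called, and 3 were lower and 4 higher at the adjusted p.

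Of 6 other feedback inhibitors tested, 4 were lower at the adjusted p and 2 of them were called, with none higher. Il17rd, a membrane inhibitor of FGF signalling, fell by 2.15 (limma's adjusted p = 7.24e-05) and its dimmer probe by 0.39 without passing. Spry1 gave 13.4 to 13.8 in WT and 11.6 to 11.8 in 4 tumours, with 13.1 in SCC replicate 2, and fell by 1.65 (limma's adjusted p = 0.000839).

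The 3 PEA3-type ETS transcription factors are targets of FGF signalling. Etv5 averaged 8.59 in WT and 6.82 in SCC and fell by 1.77 (limma's adjusted p = 0.00376), with SCC replicate 5 the lowest at 5.29. Etv1 fell by 1.02 (limma's adjusted p = 0.0117), with SCC replicate 2 at the WT level, and was under 2-fold without WT replicate 4 or 5 or SCC replicate 3, 4 or 5 (-0.90 to -0.998). Etv4 gave 5.18 to 5.57 in WT and 6.33 to 7.38 in SCC, without overlap, and rose by 1.70 (limma's adjusted p = 0.00012).

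**Figure D4:**
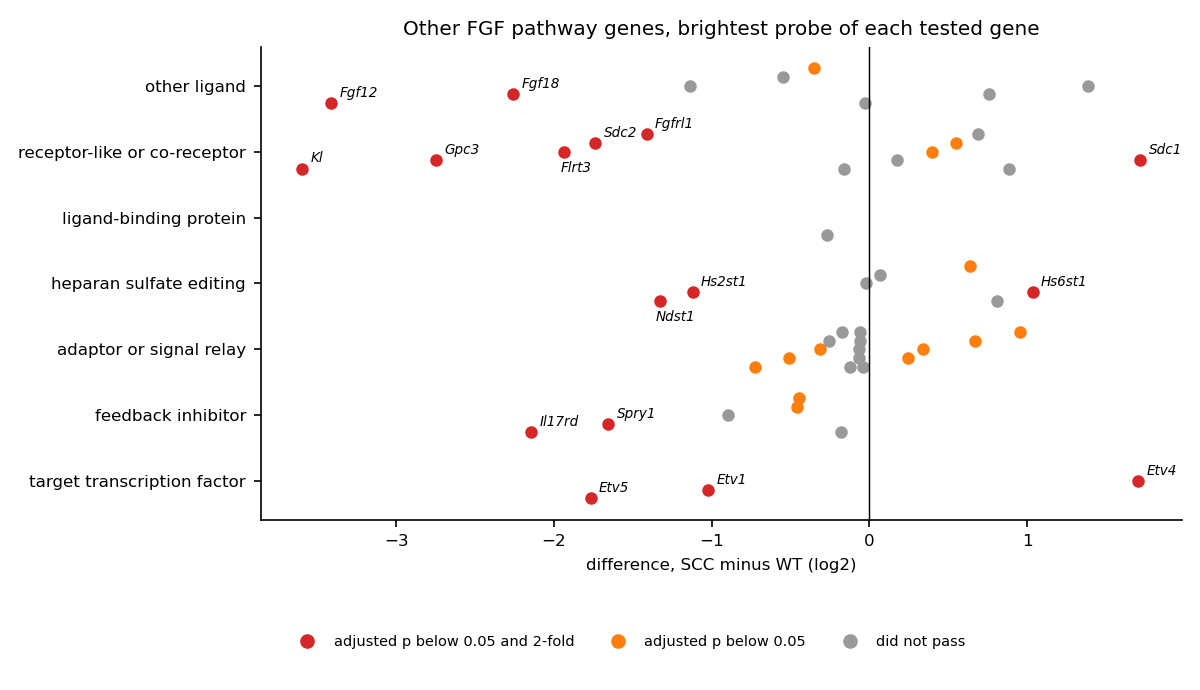
Difference between SCC and WT on the log2 scale (horizontal axis) for the brightest probe of the 52 tested pathway genes, grouped by role. Red points pass limma's adjusted p below 0.05 with at least 2-fold, orange the adjusted p alone and grey neither; 13 red points are below 0 and 3 are above, Sdc1, Etv4 and Hs6st1. Kl and Fgf12, the points farthest to the left, were dim on 3 SCC arrays each.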

How the data were processed

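RNA of WT lung and of SCC tumour was measured on 5 arrays each, with groups and replicate numbers from the sample titles. Per the file headers, the authors extracted spot intensity with Agilent Feature Extraction 12, and the deposited scanner files hold a background-corrected processed signal. A second deposited table holds the authors' log2 values for every array. It matched the quantile-normalized log2 processed signal of the same array, was used to choose the brightest probe, and was otherwise an alternative. Control and outlier-flagged spots were dropped, spots of a probe averaged, and log2 values quantile-normalized. Probes well above background on at least 4 of 5 arrays of a group were tested (30374 of 41174) with limma 3.58.1 in R 4.3.3, two-sided, with Benjamini-Hochberg adjustment over all of them. The fit used all 10 arrays without covariates, and was tested on simulated data. A probe "passed" at an adjusted p below 0.05 and was "called" with at least 2-fold as well. Exact permutation tests used all 252 splits of the arrays. Raised values were the higher of a probe's own signal and the lowest signal among probes well above background on that array. That lowest signal is not a strict limit, since a probe can exceed it without being well above background. The median difference of all tested probes was -0.09, and 0.03 with 75th percentile scaling.

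Accessions were paired with symbols through RefSeq (GRCm38.p6) for 28215 probes (68.53%), and the arrays' design uses mm9, so only RefSeq promoter coordinates are given. The members and lists were chosen with earlier results of these data known. All members are named, with pathway genes that were called, at most 20. Alternatives covered scaling, background correction (normexp, offset 50, on the median signal, since no mean signal column was used here), the deposited matrix, the filter, slide, replicate number, array weights, the methods' t-test, the call rule, the probe and each array left out. No probe was saturated, and the number of arrays limits the precision. Same-numbered arrays did not deviate together, with correlations of -0.10 to 0.01.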

Additional observations from a re-analysis of the deposited data

Results flagged for a closer look

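Single arrays far from the rest of their group were looked for in 70 groups of 5 arrays, as a gap to the nearest array of over 0.71 of the group's range. Of these, 14 met it, where chance gives about 1 in 20. SCC replicate 2 was the distant array for 7, with gaps of 0.727 for Fgf7, 0.739 for Fgfbp1, 0.719 for Flrt3, 0.8 for Sdc2, 0.819 for Etv4, 0.866 for Spry1 and 0.9 for Fgfrl1. SCC replicate 5 was distant for 3 probes, at 0.715 for the third probe of Fgfr1, 0.868 for the brightest probe of Fgf2 and 0.838 for the second probe of Spry2. In WT the distant arrays were replicate 3 for Fgfr3 (0.883), replicate 1 for Fgf1 (0.868) and Spry2 (0.781), and replicate 4 for Kl (0.726).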

How the results depend on the processing

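The 5 called members, 16 called pathway genes and 3885 called genes stayed within 1.5 times under every alternative other than 3. With slide as a fixed block the counts were 1, 6 and 1817, with the adjusted p alone 8, 29 and 8398, and with the second brightest probe 2, 6 and 1214, over fewer genes. Leaving out single arrays gave 5 to 6, 14 to 20 and 3582 to 4382. Array numbers as a replicate block gave 5, 16 and 3685. Fgfr1 turned sign under 75th percentile scaling (0.073) and as the mean over its probes (0.034), and Spry2 on its second probe (0.29). In a plain test of each probe, the form that the methods' analysis of variance takes for 2 groups, Fgfbp1 missed an unadjusted p of 0.01 and passed after Benjamini-Hochberg adjustment. Normexp background correction reduced Fgf10 to -1.59, Fgf7 to -1.87 and the second Fgf2 probe to -0.37. Under slide as a block Fgfr2, Fgfr3, Fgfr4, Fgf1, Fgf7 and Fgfbp1 kept their direction without passing. The cause was not tested. Probes near background have no order among their levels.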
